A study of Mus musculus with 92 samples.

Results

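The genes described here encode the proteins of the cytosolic ribosome, followed in mouse tibialis anterior (TA) muscle after a freeze injury. They were taken by a rule on gene names, with earlier results of these data known. The rule took every gene of the deposited table called Rpl or Rps with a number, optionally followed by a, l or x. It also took Rplp0, Rplp1, Rplp2 and Rpsa. This gave 80 genes of 23811 in the table, 31 of the small subunit and 49 of the large subunit. The muscle came from male C57BL/6J mice that were 10 weeks of age when obtained. The left TA muscle of each mouse was exposed and touched with a steel probe at dry ice temperature, and the right TA muscle of the same mouse, with no injury, was the control. Injured and control muscles were compared at 3, 10, 24, 48 and 72 h and at 7, 14, 21 and 28 d. There were 2 injured and 3 control muscles at 3 h, 5 of each at 10, 24 and 72 h and at 14 and 28 d, 3 injured and 4 control muscles at 48 h and at 7 d, and 4 injured and 3 control muscles at 21 d. Each library came from a portion of the TA muscle of a single leg, with its cell types together. Which part of the muscle was taken is not given in the sources used here. The control muscle shares the circulation of an injured animal, and fewer cells of a type cannot be told apart from less RNA per cell.

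Ribosomal proteins clothe the ribosomal RNA of the small subunit, which reads the mRNA, and of the large subunit, which joins amino acids. Cells that grow or divide need many ribosomes, and the synthesis of ribosomal proteins is largely controlled at translation, through a run of pyrimidines at the 5′ end of their mRNAs (the terminal oligopyrimidine or TOP tract) that answers to mTOR signaling. Most of these proteins are present in every cell type. Rpl3l is an exception: it is a paralog of Rpl3 that is known for its expression in skeletal muscle and heart, where it can take the place of Rpl3 in the ribosome.

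A TOP-like run was looked for in RefSeq promoters of build GRCm38.p6, because it is the sequence feature the family is known to share. The search was for a C followed by at least 4 C or T, that is a run of at least 5 pyrimidines, on the strand of the gene, beginning within 10 bases of an annotated start. Promoters matched 60 of the 80 members, and 37 of these 60 (61.7%) had a run at any of their starts, against 27 of 69 mitochondrial ribosomal protein genes (39.1%) and 8804 of 27025 genes of all kinds (32.6%). The 30-base windows below run from 18 bases before the annotated start to 12 bases from it, with the run in capitals. They show members with a run, then Rplp0 and the paralog Rpl3l, where no full run lies in the window, and then the 2 isoforms of elongation factor 1 alpha that are set beside the family later.
Rps6, chr4:86857356-86857385, minus strand: gttaagcggaagtcgggCCTCTTTTTCgtg
Rps24, chr14:24490660-24490689, plus strand: gcccccgcgctggggtCCTTCCTTgcgcgt
Rplp2, chr7:141447633-141447662, plus strand: cactgcgtcagcgtCTTCCTTTCgccgccg
Rps27, chr3:90213637-90213666, minus strand: aggatttccgctttcgCTCCTTTCCggcgg
Rpl39l, chr16:10170210-10170239, plus strand: tagctcccaggCCTTTCCggatttccggtg
Rplp0, chr5:115559449-115559478, plus strand: gtcgtcttcgggtttcgaggaccgcctggt
Rpl3l, chr17:24727808-24727837, plus strand: gctgagtgttctagctctgtcatttgaCCT
Eef1a1, chr9:78481713-78481742, minus strand: tgtgctggctccgCCCTCTTCCCgagggtg
Eef1a2, chr2:181157004-181157033, minus strand: ttttctctcctggtctgcgttctcgctcac
In Rpl3l a run of 5 pyrimidines begins at base 10 of the transcript, so that only its first bases are in the window. The Eef1a2 window also holds a run of pyrimidines, which begins more than 10 bases before the annotated start and is therefore not marked. A match is a description of the letters around an annotated start. A window with no match says only that no such run begins within 10 bases of that start.

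Ribosomal protein genes have many processed copies in the genome, and this sets how far their levels can be read. Of the 31-base words in the coding sequence of each member, a median of 96.0% also occurred elsewhere in the mm9 genome, as exact matches on either strand, and for 52 of 79 members with a coding sequence it was over 90%. Rpl3 had 97.4% of its words elsewhere, with a median of 5 further places per word, and Rpl3l had none of its 1194 words elsewhere and shared none with Rpl3. Reads were pairs of 76 bases, longer than these words, and how reads with several places were shared out is not given in the sources used here. Levels of different members, including Rpl3 against Rpl3l, are therefore uncertain, and the comparisons below are mainly of each gene with itself between injured and control muscle.

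Values are FPKM (fragments scaled to the length of the transcript and to all mapped fragments of the library). Differences are of log2(FPKM + 0.1), injured minus control, and a gene was called when its adjusted p from limma (Benjamini-Hochberg, over 12099 genes) was under 0.05 and the difference was at least 2-fold. The files hold no read counts, so the depth of a library is unknown. At 7 d both legs of animal 02 stood apart from the rest of their groups. Against the other libraries of its group, the injured leg was 3.26 log2 units higher in the median ribosomal protein gene, 1.80 higher in other genes with transcripts under 1000 bases, 0.39 higher at 2000 to under 4000 bases and 0.35 lower at 4000 bases or more. The control leg of the same animal had deviations of 2.48 in the members, 1.75 under 1000 bases and -0.84 at 4000 bases or more. The control library of animal 02 at 72 h also sloped with length, with values of 0.64 for the members, 0.04 under 1000 bases and -1.82 at 4000 bases or more, and only 5611 genes above 1 FPKM. Members are short: their transcripts had a median of 857.5 bases, and 51 of the 78 with a length were under 1000. These 3 libraries are used below with their group, and the main results for the members at 7 d are also given without animal 02. At 72 h the medians and shares of all genes, and the other scalings, include the control library of animal 02.

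**Figure D1:**
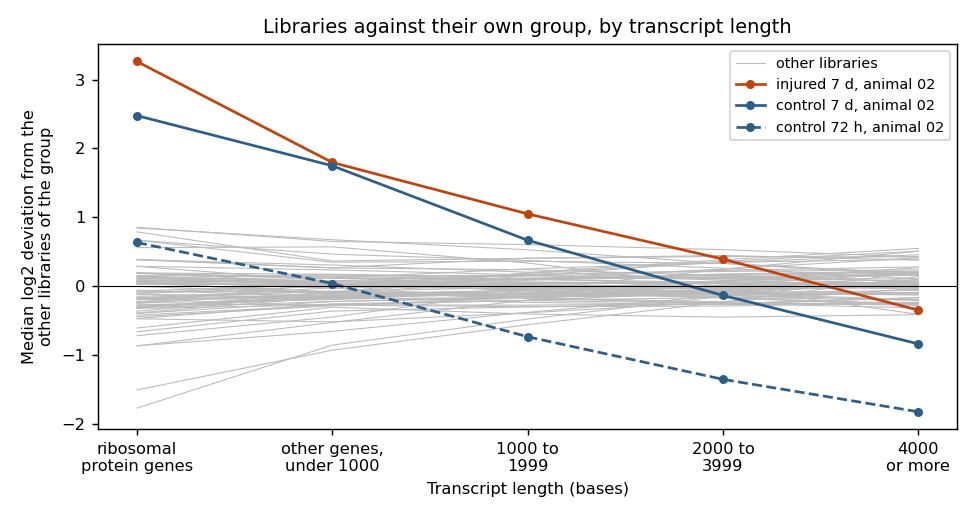
Median log2 deviation of each library from the mean of the other libraries of its group (y axis), for the ribosomal protein genes and for 4 classes of other genes by transcript length in bases (x axis). The injured and control legs of animal 02 at 7 d and the control leg of animal 02 at 72 h slope down with length, and the injured leg at 7 d lies 3.26 units above its group in the ribosomal protein genes.

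In control muscle the members spanned a wide range of levels. Over the 39 control libraries the median of the 79 tested members ran from 0.0761 FPKM for Rpl39l to 654 FPKM for Rplp1, a protein of the acidic stalk that recruits elongation factors, and 45 members had over 100 FPKM. Rpl3l had a median of 288 FPKM and Rpl3 one of 6.09 FPKM. Rpl10l, a paralog known for its expression in testis, was listed at 0 in all 76 libraries and was not tested. Taken relative to the family's median in each library, the members had an SD over control libraries with a median of 0.147 log2 units, lowest for Rps3 (0.069) and highest for Rpl39l (0.724). Among the control muscles of the 9 time points, an F test across times passed for 1 of 79 members, Rpl26 (adjusted p = 0.0155), against 21.5% of all genes.

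On the FPKM scale the level of the family was higher in injured than in control muscle at 48 h and 72 h, a difference that at 72 h turned to -0.17 when each library was centred on its median gene. In the control muscle of animal 02 at 72 h the median gene lay at -0.11 in log2(FPKM + 0.1), against 1.54 to 1.61 in the other control muscles. The centred difference without this library was not computed. At 48 h the median FPKM over the members was 227, 390.7 and 208 in the injured muscles, against 127.8, 126.5, 115.5 and 107 in the control muscles. At 72 h it was 232.8, 388.2, 514.8, 385.6 and 280.6 in the injured muscles, against 157.3, 191.6, 134.3, 139.3 and 136.7 in the control muscles. The groups did not overlap at either time, and animal 04 at 48 h and animal 03 at 72 h were the highest of their groups. At 7 d it was 1601, 190.8 and 167.5 in the injured muscles, against 633.2, 116.1, 114.4 and 124.1 in the control muscles, where the values of 1601 and 633.2 are the legs of animal 02. At 14 d the muscles were uneven in both legs. The injured muscles had 116.8 and 116.3 in animals 01 and 02 and 178.3, 183 and 222.3 in animals 03 to 05. The control muscles of the same animals had 115.3 and 108.6, and 143.5, 141.4 and 165. At 28 d animal 05 was highest in both legs, with 270.1 in the injured and 246.8 in the control muscle.

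**Figure D2:**
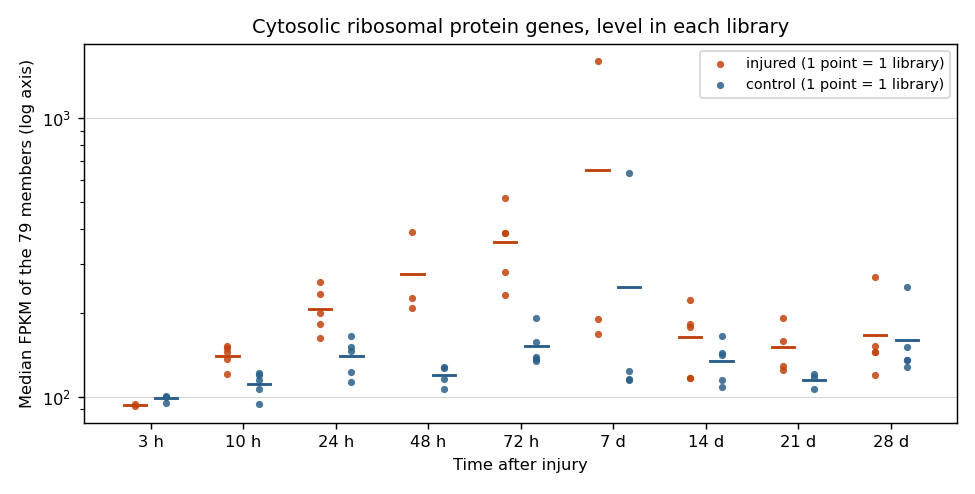
Median FPKM of the 79 tested ribosomal protein genes in each library (y axis, log scale) against the time after injury, with a bar at the mean of each group. The injured muscles lie at 208 to 390.7 at 48 h and at 232.8 to 514.8 at 72 h, above all control muscles of those times on the FPKM scale, and both legs of animal 02 lie far above their groups at 7 d.

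On the FPKM scale over 50% of the members were called higher at 48 h, 72 h and 7 d, but not under other scalings, where quantile normalization called 29, 17 and 15 at these times, upper quartile scaling 3, 2 and 20 and median centring 2, 2 and 6. With 7 d fitted alone 0 were called higher at that time. No share of all genes in the same fit stands beside these counts, so a drop in the family cannot be told from a drop in all genes. Of the 79 tested members, the number called higher was 0, 2, 1, 45 and 59 at 3, 10, 24, 48 and 72 h and 42 at 7 d, against 1.69%, 11.8%, 17.6%, 33.1%, 50.2% and 21.6% of all genes tested. As shares of the members these were 57.0% at 48 h, 74.7% at 72 h and 53.2% at 7 d, while of other genes with transcripts under 1000 bases 34.1%, 40.1% and 30.5% were called higher. At 10 and 24 h the share of members was below that of all genes. At 14, 21 and 28 d 0 members were called by limma, against 2.89%, 0.00827% and 0.0496% of all genes, and 1, 0 and 0 members had an unadjusted p under 0.05. At 3 h that number was also 0. These p-values rest on a spread per gene that includes both legs of animal 02 at 7 d. By adjusted p alone, with no fold limit, 59 members were higher at 48 h, 76 at 72 h and 48 at 7 d, against 49.6%, 70.9% and 30.0% of all genes. At 7 d without both legs of animal 02 they numbered 10, against 9.54% of all genes. A single member was called lower, Rpl3l at 48 h, when 1.56% of all genes were. Every injured muscle was above every control muscle for 78 of the 79 members at 48 h, 53 at 72 h and 1 at 7 d, against 60.4%, 57.0% and 23.2% of all genes. With the 2 legs of an animal treated as a block, 2 members were called higher at 24 h and 1 at 14 d. Members called higher at 48 h numbered 5 without the injured muscle of animal 04, and at 7 d they numbered 1 without the injured leg of animal 02, 75 without its control leg and 5 without both (8.11% of all genes in that fit). For the counts with blocks and with 1 library left out, the share of all genes is not given.

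The size of the family's change was close to that of the median gene at 72 h and larger at 48 h, 7 d and 21 d. At 72 h the median of all genes includes the control muscle of animal 02, whose median gene was the lowest of its group. The median difference of the members was -0.06, 0.31, 0.44, 1.07 and 1.17 at 3, 10, 24, 48 and 72 h, and 1.08, 0.26, 0.36 and 0.06 at 7, 14, 21 and 28 d. The median of all genes tested was -0.28, 0.20, 0.29, 0.63, 1.01, 0.31, 0.17, 0.03 and -0.03 at the same times. At 72 h the differences had an SD of 0.54 over the members, against 1.41 over all genes. Genes of other kinds with transcripts under 1000 bases had a median of 0.53 at 48 h, 0.70 at 72 h, 0.57 at 7 d and 0.355 at 21 d. Scaling changes how the family reads. With each library centred on its median gene, the members' median was 0.29 at 48 h, -0.17 at 72 h and 0.69 at 7 d, and with quantile normalization it was 0.90, 0.80 and 0.72. Without both legs of animal 02 the members' median at 7 d was 0.58, against 0.17 for all genes.

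**Figure D3:**
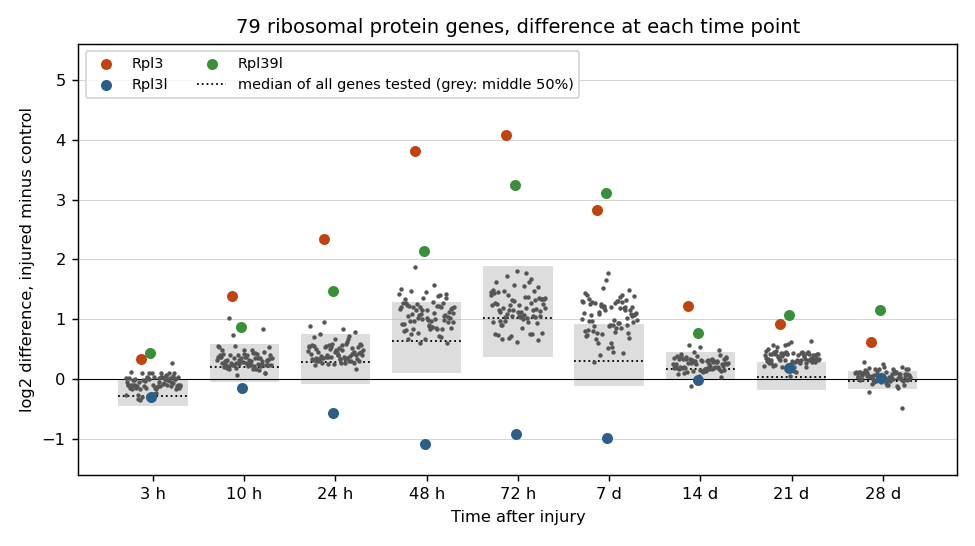
log2 difference, injured minus control, of each of the 79 tested ribosomal protein genes (points) at each time point, with the median (dotted) and middle 50% (grey) of all genes tested. Most members lie together, with a median of 1.17 at 72 h, Rpl3 and Rpl39l lie above them at 4.07 and 3.24 and Rpl3l lies below them at -0.92.

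The small and the large subunit had close medians, though a difference between them was not tested. At 72 h 25 of 31 small subunit members and 34 of 48 large subunit members were called higher, with median differences of 1.26 and 1.14. At 48 h the counts were 19 of 31 and 26 of 48, with medians of 1.10 and 1.06. Rps6, the small subunit protein that S6 kinases phosphorylate, had 69.4, 117, 156, 122 and 83.7 FPKM in the injured muscles at 72 h, against 42.1, 50.8, 39.1, 40.6 and 35.9 FPKM in the control muscles. Its difference was 1.34 ± 0.295 (SE, adjusted p = 5.02e-05). Rpsa, which also serves as a laminin receptor, had 231, 356, 466, 353 and 278 FPKM in the injured muscles, against 138, 153, 143, 129 and 160 FPKM in the control muscles (difference 1.19). For both genes each injured muscle was above every control muscle. Rps27a, which is made as a fusion with ubiquitin, rose by 1.54, Rps19, a protein mutated in Diamond-Blackfan anemia, by 1.67, and Rps24 and Rps14, also linked to inherited or acquired anemia, by 1.33 and 1.02.

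The proteins of the stalk and of the 5S particle were also higher at 72 h on the FPKM scale, but with each library centred on its median gene Rplp0, Rplp1, Rplp2, Rpl5 and Rpl11 all had differences below 0, as had Rpsa, Rps14 and Rps24. These centred values include the control muscle of animal 02 at 72 h, with its low median gene. Rplp0, the base of the stalk, averaged 720 ± 119 FPKM in injured and 396 ± 28.2 FPKM in control muscle at 72 h (SD, n = 5 each), a difference of 0.85 that passed the adjusted p (0.00557) and not the 2-fold limit. Rplp1 rose by 1.00 and Rplp2 by 1.07. Rpl5 and Rpl11, which bind 5S RNA and can restrain Mdm2 when ribosome assembly fails, rose by 1.13 and 1.24. Rpl10, whose joining completes the large subunit, rose by 1.46, and Rpl13a, known in human cells for leaving the ribosome to silence inflammatory mRNAs, by 1.45. Rpl41, the smallest protein of the ribosome, had 1240, 2532, 3601, 2511 and 1420 FPKM in the injured muscles, against 547, 950, 517, 532 and 531 FPKM in the control muscles, and its difference of 1.81 (adjusted p = 0.000179) was the third in size. Rps27 and Rps27l were the 2 members with an adjusted p over 0.05 at 72 h, with differences of 0.94 (adjusted p = 0.134) and 0.66 (adjusted p = 0.0597).

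Rpl3 rose more than any other member at each of 10, 24, 48 and 72 h. In mm9 it lies at chr15:79908210-79913836. At 10 h it had 24.4, 9.67, 18.8, 27.9 and 10.5 FPKM in the injured muscles, against 7.94, 6.97, 7.48, 5.16 and 4.74 FPKM in the control muscles. At 24 h it had 29.2, 50.5, 26.5, 34.5 and 75.9 FPKM in the injured muscles, against 6.09, 10.4, 12.5, 5.61 and 6.66 FPKM in the control muscles. The groups did not overlap at either time, when few other members passed the test on the FPKM scale. At 48 h the injured muscles had 56.8, 138 and 62.5 FPKM, against 7.39, 6.51, 4.71 and 4.13 FPKM in the control muscles, and at 72 h 60.7, 100, 168.4, 120 and 73.8 FPKM, against 5.92, 6.84, 4.53, 6.24 and 5.47 FPKM. The differences were 1.39 ± 0.447 at 10 h (SE, adjusted p = 0.0186), 2.34 ± 0.447 at 24 h (adjusted p = 2.6e-05), 3.81 ± 0.540 at 48 h (adjusted p = 2.78e-08) and 4.07 ± 0.447 at 72 h (adjusted p = 3.56e-12). With quantile normalization, upper quartile scaling and median centring the difference at 72 h was 3.31, 3.16 and 2.73, and it passed the test under each.

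At 7 d Rpl3 had 337, 33.1 and 21.8 FPKM in the injured muscles, against 27.3, 6.00, 4.16 and 8.34 FPKM in the control muscles, where the first value of each group is animal 02. The difference was 2.83 (adjusted p = 4.1e-05), and without both legs of animal 02 it was 2.16 (adjusted p = 0.0032). At 14 d the injured muscles had 8.33, 5.78, 24.8, 24.7 and 31.5 FPKM, against 6.10, 6.05, 5.96, 6.43 and 9.39 FPKM in the control muscles, a difference of 1.22 that did not pass the test. Animals 03 to 05 were above every control muscle and animals 01 and 02 were not, the same division as in the family's median. In the family's median the control legs of animals 03 to 05 were also above those of animals 01 and 02.

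Rpl3l went the other way. It lies at chr17:24864773-24873094 in mm9. At 24 h it had 219, 169, 217, 199 and 127 FPKM in the injured muscles, against 279, 268, 247, 273 and 292 FPKM in the control muscles. At 48 h it had 167.6, 100 and 140 FPKM in the injured muscles, against 307, 291, 262 and 272 FPKM in the control muscles. At 72 h it had 141, 156, 77.3, 127 and 179 FPKM in the injured muscles, against 249, 182, 272, 271 and 284 FPKM in the control muscles. At all 3 times each injured muscle was below every control muscle. Rpl3l fell by 0.57 at 24 h (adjusted p = 0.0147), by 1.09 at 48 h (adjusted p = 6.59e-05), by 0.92 at 72 h (adjusted p = 1.87e-05) and by 0.98 at 7 d (adjusted p = 0.000624), and it was the only member with an adjusted p under 0.05 and a negative difference at these times, when 3.64%, 4.45%, 3.62% and 4.37% of all genes had this. Under the 3 other scalings the difference at 72 h was -1.36, -1.84 and -2.26. Without both legs of animal 02 the difference at 7 d was -0.30 (adjusted p = 0.451). Its means at 21 and 28 d were 348 and 309 FPKM in injured muscle, against 301 and 308 FPKM in control muscle, its difference at 14 d was -0.02, and none of these differences passed the test. The 12 muscle fiber markers described below had median differences of -0.59, -0.82 and -0.80 at 24, 48 and 72 h and -0.64 at 7 d. At 48 h and at 7 d 1 of these markers was above 0. Whether Rpl3l differs from them was not tested.

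**Figure D4:**
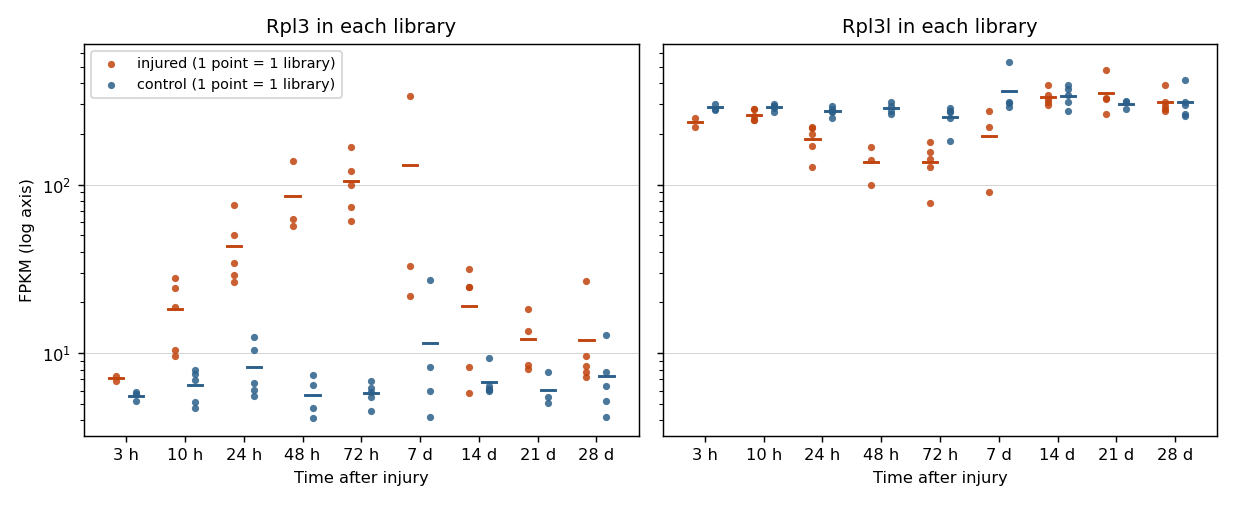
FPKM of Rpl3 (left) and Rpl3l (right) in each library (y axis, log scale) against the time after injury, with a bar at the mean of each group. Injured Rpl3 values reach 60.7 to 168.4 at 72 h, above the control values of 4.53 to 6.84, while injured Rpl3l values of 77.3 to 179 lie below the control values of 182 to 284.

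Because Rpl3 and Rpl3l are alternatives for the same place in the ribosome, their ratio was followed in each library. The log2 ratio of Rpl3l over Rpl3 averaged 0.42 ± 0.989 in injured and 5.41 ± 0.441 in control muscle at 72 h (SD, n = 5 each). The injured minus control difference was -0.63, -1.54, -2.91, -4.89 and -4.99 at 3, 10, 24, 48 and 72 h, and -3.81, -1.23, -0.74 and -0.60 at 7, 14, 21 and 28 d. In two-sided exact permutation tests, adjusted over the 9 times, the differences at 10, 24 and 72 h passed (adjusted p = 0.0238 each, unadjusted 0.00794, the smallest these groups allow). At 48 h and 7 d the unadjusted exact p was 0.0286, the smallest for 3 against 4, and the adjusted p was 0.0514. Without both legs of animal 02 the difference at 7 d was -2.46, where 2 injured and 3 control muscles cannot reach the threshold. Paired within animals, with sign flips, the smallest exact p for 5 pairs was 0.0625 and the adjusted p was 0.188 at 10, 24 and 72 h, with the ratio lower in the injured leg of 5 of 5 animals at each of these times. Rpl3 exceeded Rpl3l, a ratio under 1 on the linear scale, in 3 libraries, all injured: animal 04 at 48 h (0.725), animal 03 at 72 h (0.459) and animal 02 at 7 d (0.269). As a ratio between genes it rests on Rpl3 reads that match several places.

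The 250 bases before the upstream annotated start of Rpl3l are shown because this member moved against the rest of the family. E-boxes (CANNTG, a pattern that reads the same on both strands), the sequence bound by myogenic factors among others, are in capitals. The stretch lies at chr17:24727576-24727825 of GRCm38.p6, plus strand.
Rpl3l promoter: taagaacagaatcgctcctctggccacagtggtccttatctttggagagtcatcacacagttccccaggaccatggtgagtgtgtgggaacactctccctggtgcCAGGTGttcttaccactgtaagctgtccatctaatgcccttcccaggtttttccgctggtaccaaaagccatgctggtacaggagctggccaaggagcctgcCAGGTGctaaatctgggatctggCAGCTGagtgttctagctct
It holds 3 E-boxes. The patterns MEF2, CArG and MCAT were also searched and have 0 matches in it. The 250 bases before the second annotated start of Rpl3l hold 1 E-box and 1 MEF2 match. A MEF2 match lay before 2.92% of all annotated starts and 1.39% of the starts of members. The 250 bases before the start held at least 1 E-box at 48.6% of the starts of members and at 66.2% of all annotated starts. These E-box shares are for at least 1 E-box and are no background for a count of 3.

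Rpl39l was also higher in injured muscle. It is a paralog of Rpl39, a small protein at the exit tunnel, known for its expression in testis. At 72 h it had 1.04, 2.35, 4.81, 2.82 and 0.562 FPKM in the injured muscles, against 0.0816, 0.0739, 0.112, 0.148 and 0.109 FPKM in the control muscles. The groups did not overlap, and the level stayed low beside the rest of the family. The differences were 2.15 at 48 h (adjusted p = 0.0112), 3.24 at 72 h and 3.12 at 7 d. It passed the filter on low values only through its injured groups at 72 h and 7 d, with means of 2.32 and 3.34 FPKM, so that the differences there are a description. It is nevertheless counted among the members called higher at 48 h, 72 h and 7 d. It was listed at 0 in some libraries, and its difference at 48 h was -0.01 with quantile normalization. Without both legs of animal 02 its difference at 7 d was 1.81 (adjusted p = 0.133). Against the family's median at 72 h, Rpl3 moved by 2.87 and Rpl39l by 2.04 log2 units, and Rpl3l by -2.13. These were the 3 members more than 1 unit from the family, and Rpl41 was next, at 0.61.

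A few members passed early on the FPKM scale. Rpl26, a large subunit protein near the exit tunnel, had 28.0, 32.1, 28.2, 40.8 and 23.9 FPKM in the injured muscles at 10 h, against 24.3, 10.96, 12.3, 10.8 and 20.2 FPKM in the control muscles, a difference of 1.02 (adjusted p = 0.0152). The groups overlapped by 1 control library, that of animal 01, and Rpl26 is also the member that varied among control muscles. Rpl30 and Rpl12 rose at 24 h, by 0.95 (adjusted p = 0.0286) and 0.88 (adjusted p = 0.0368), and Rpl30 by 1.87 at 48 h (adjusted p = 0.000177).

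The family's change differed between time points for part of its members. The difference at 72 h exceeded that at 10 h, by the interaction term of the same fit and adjusted p, in 12 of 79 members and was below it in 1, Rpl3l, against 49.2% and 1.63% of all genes. It was lower at 14 d than at 72 h in 29 members and higher in 1, Rpl3l, against 54.4% and 1.66% of all genes. Rpl39l is counted in the 12 and in the 29, although it passed the filter on low values through its injured group at 72 h. With the legs of an animal as a block, the 12 became 36 and the 29 became 50. The shares of all genes above are of the fit without blocks, and those of the blocked fit are not given. Rpl3 had the greatest change of a member in both contrasts, which share the 72 h muscles, at 2.68 for 72 h minus 10 h (adjusted p = 0.000378) and -2.85 for 14 d minus 72 h (adjusted p = 0.000151).

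Many genes that build ribosomes had an adjusted p under 0.05 at 10 and 24 h, when few members did. Of 43 ribosome biogenesis genes, 30, 34, 36 and 41 rose at 10, 24, 48 and 72 h by adjusted p alone (69.8%, 79.1%, 83.7% and 95.3%), against 19.2%, 31.3%, 49.6% and 70.9% of all genes. By the 2-fold call they numbered 8, 13, 23 and 26 (18.6%, 30.2%, 53.5% and 60.5%), against 11.8%, 17.6%, 33.1% and 50.2% of all genes. Their median difference was 0.70 at 10 h and 1.19 at 72 h. Nop58, a core protein of the particles that methylate ribosomal RNA, averaged 25.7 ± 12.2 FPKM in injured and 5.75 ± 1.22 FPKM in control muscle at 10 h (SD, n = 5 each), and Gnl3, the nucleolar protein nucleostemin, averaged 31.5 ± 10.1 and 12.9 ± 2.93 FPKM. Npm1, a nucleolar chaperone, and Fbl, the methyltransferase fibrillarin, led at 72 h with differences of 2.03 and 1.96. Whether the time course differed between the lists was not tested.

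Mitochondrial ribosomal proteins, which make the separate ribosome of that organelle, are set beside the cytosolic ones. Of 76 such genes 0 rose at 10 and 24 h, 12 at 48 h (15.8%) and 20 at 72 h (26.3%) by adjusted p alone, against 19.2%, 31.3%, 49.6% and 70.9% of all genes at these 4 times. At 10, 24 and 72 h 4, 1 and 2 fell (5.26%, 1.32% and 2.63%), against 1.81%, 3.64% and 3.62% of all genes, and the median difference at 72 h was 0.17. Mrpl52 and Mrpl40 rose the most at 72 h, by 0.82 and 0.74, and Mrpl42 fell by 0.71. Of 39 translation factors, 8, 11, 21 and 30 rose at 10, 24, 48 and 72 h, which is 20.5%, 28.2%, 53.8% and 76.9% of the list and near the shares of all genes (19.2%, 31.3%, 49.6% and 70.9%), with Eif4a1, the helicase that opens mRNA leaders, and Pabpc1, the poly(A) binding protein, up by 1.61 and 1.59 at 10 h. Gnb2l1, the RACK1 protein of the small subunit, rose by 1.05 at 72 h, and Fau, whose product holds a small subunit protein, by 1.61.

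**Figure D5:**
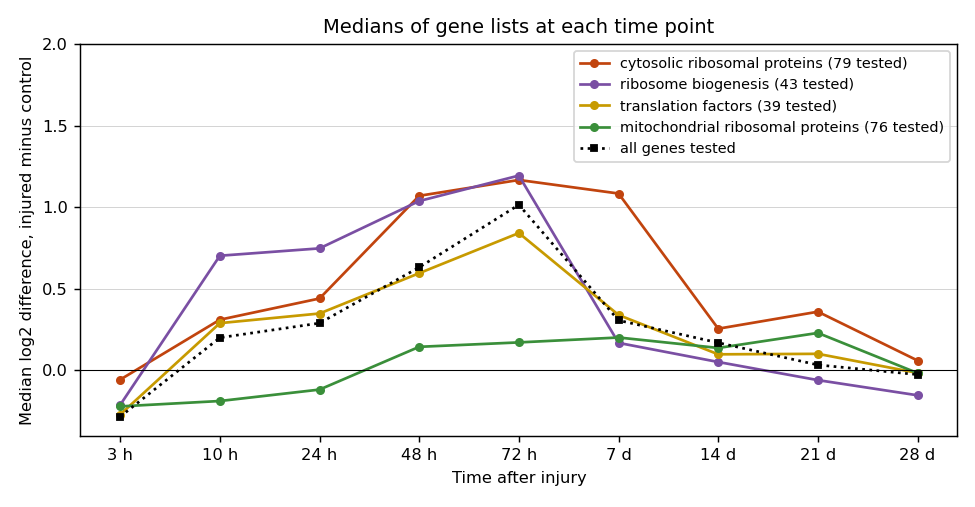
Median log2 difference, injured minus control (y axis), of the ribosomal protein genes, 3 other gene lists and all genes tested at each time point. Ribosome biogenesis lies at 0.70 at 10 h, against 0.31 for the ribosomal proteins and 0.20 for all genes, and the mitochondrial ribosomal proteins lie at 0.17 at 72 h.

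Elongation factor 1 alpha is also made as a common and a muscle isoform. Eef1a1, the elongation factor that brings aminoacyl tRNA to the ribosome in most cells, averaged 1500 ± 645 FPKM in injured and 86.7 ± 12.8 FPKM in control muscle at 72 h, a difference of 4.02 (adjusted p = 5.86e-12). Eef1a2, its isoform of muscle and neurons, averaged 149 ± 45.1 and 206 ± 97.8 FPKM, with a difference of -0.20 (adjusted p = 0.515), and fell by 0.89 at 48 h (adjusted p = 0.0208). Eef1a1 rose by 1.86 at 24 h (adjusted p = 0.00075) and had a difference of 1.13 at 10 h (adjusted p = 0.0639). Among 20 genes of growth signaling to translation, 2 rose at 10 h (10%) and 11 at 72 h (55%), against 19.2% and 70.9% of all genes, and 1 fell at each time (5%), against 1.81% and 3.62% of all genes. Myc, a transcription factor with many ribosomal targets, averaged 10.2 ± 6.06 FPKM in injured and 0.977 ± 0.596 FPKM in control muscle at 10 h, and its differences were 3.24 at 10 h and 2.89 at 72 h. Eif4ebp1, which holds back cap binding until mTOR phosphorylates it, rose by 1.28 at 10 h, and Ddit4l, an inhibitor of mTOR in muscle, fell by 1.35 at 10 h and by 1.04 at 72 h.

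Markers of other cell types than the muscle fiber moved over the same times. The summed level of 12 leukocyte markers was 596 to 2750 FPKM in injured and 5.12 to 29.5 FPKM in control muscle at 72 h, and 21.6 to 180 and 2.62 to 10.5 FPKM at 10 h. It was 397 to 1330 FPKM in injured and 5.2 to 13.8 FPKM in control muscle at 48 h, and 100 to 2850 and 4.64 to 39.7 FPKM at 7 d. That of 10 proliferation markers was 43.4 to 167 FPKM in injured and 0.656 to 2.93 FPKM in control muscle at 72 h, and that of 8 fibroblast markers 521 to 967 and 88.6 to 189 FPKM. The sum of 12 muscle fiber markers was 32900 to 84400 FPKM in injured and 81500 to 111000 FPKM in control muscle. The sum of 8 myogenic precursor markers was 910 to 1310 FPKM in injured and 317 to 772 FPKM in control muscle. At 72 h none of the markers in these lists was at 0 in every library of either group. Their part in the changes of the ribosomal protein genes was not tested.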

How the data were processed

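RNA-seq libraries, each from a portion of a TA muscle, were strand-specific and read as pairs. The FPKM values deposited by the authors came from TopHat, Cufflinks and Cuffdiff on mm9, the tools and build that the submitters' processing notes name. Assemblies were made separately for injured and control muscle. Of 92 labelled samples 80 had a column here. The incomplete injured library of animal 05 at 7 d and a control library whose time the labels do not give were left out, and for animal 03 at 24 h the 2 libraries of each leg, A and B, were averaged, which left 76. The files give FPKM with no depth, so no counting interval could be computed. Genes with a mean of at least 1 FPKM in any of the 18 groups (12099) were fitted as log2(FPKM + 0.1) by limma 3.58.1 (R 4.3.3), with injured minus control at each time and 58 residual degrees of freedom. FPKM rests on transcript length and on the sum of all genes, so that a few abundant or many short transcripts move it.

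The Rpl3l over Rpl3 ratio was tested by exact permutation. Members, gene lists and named genes were chosen with earlier results of these data known. Named genes were Rpl3, the paralogs ending in l, the stalk and 5S proteins, Rps6, Rpsa, Rps27a, Rpl13a, Rps19, Rps14, Rps24, Rpl10 and Rpl41, up to 3 members with the largest change per direction and time, and, in the other lists, Eef1a1, Eef1a2, Gnb2l1, Fau and those with the largest differences. A further gene of this rule is not reported here. The legs of an animal are pairs by the labels: over 36 pairs the consensus correlation of the legs was 0.214, and 20 pairs had a correlation over 0.1 (-0.281 to 0.673). Each mouse is a replicate, and the alternatives were 3 other scalings, other pseudocounts and filters, library weights, animal blocks and leaving out libraries. Scripts were tested on simulated data. Figures were drawn with matplotlib 3.10.9.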

Additional observations from a re-analysis of the deposited data

Results flagged for a closer look

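In groups of 4 or more libraries, 52 combinations of a group and a quantity were looked at (the members' median, Rpl3, Rpl3l and their ratio), and in 8 a library lay far from the rest of its group, where chance gives about 1 in 20. The quantities overlap, and several of the 8 come from the same libraries. The members' median was 633 FPKM in the control leg of animal 02 at 7 d (114 to 124 in the others) and 247 FPKM in the control leg of animal 05 at 28 d (128 to 151 in the others). Rpl3 was at 9.39 FPKM in the control leg of animal 05 at 14 d (5.96 to 6.43 in the others) and at 26.9 FPKM in the injured leg of animal 05 at 28 d (7.25 to 9.65 in the others). Rpl3l was at 182 FPKM in the control leg of animal 02 at 72 h (249 to 284 in the others) and at 535 FPKM in that of animal 02 at 7 d (288 to 310 in the others). The linear Rpl3l over Rpl3 ratio was 14.3 in the injured leg of animal 01 at 21 d (35.1 to 40.2 in the others) and 14.5 in that of animal 05 at 28 d (31.5 to 38.2 in the others).

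The injured minus control difference changed between time points for several named members, by the limma interaction term. For 72 h minus 10 h the change was 2.68 for Rpl3, 2.37 for Rpl39l, 1.32 for Rps19, 1.14 for Rpl10 and -0.77 for Rpl3l. For 14 d minus 72 h it was -2.85 for Rpl3, -2.47 for Rpl39l, -1.38 for Rps19, -1.27 for Rpl12, -1.20 for Rpl10, -1.15 for Rpl30, -1.13 for Rps27a, -1.07 for Rps6, -0.97 for Rpl5 and -0.92 for Rpsa, and 0.91 for Rpl3l. Both contrasts share the muscles of 72 h. Rpl39l passed the filter on low values through its injured group at 72 h, so its changes here are a description.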

How the results depend on the processing

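Counts of members called moved with the scaling, with single libraries and with the fit, and the cause was not tested. The counts below stand without the share of all genes in the same fit, so a change of the family alone cannot be read from them. With quantile normalization the members called higher numbered 1, 29 and 17 at 10, 48 and 72 h and 15 at 7 d, 1 was called lower at 72 h and at 7 d, 8 differed among control muscles and 26 had a higher difference at 72 h than at 10 h, with a members' median of 0.15 at 3 h and a difference of -0.009 for Rpl39l at 48 h. With upper quartile scaling the counts were 1, 3, 2 and 20 higher at 10 h, 48 h, 72 h and 7 d, 1 lower at 72 h and at 7 d, 3 among control muscles and 1 for each contrast of times, with a median of 0.21 at 3 h and a difference of -0.069 for Rplp0 at 72 h. With median centring they were 1, 2, 2 and 6 higher at the same times, 1 lower at 24 h, 72 h and 7 d, 5 among control muscles and 1 for each contrast, and the medians at 3, 10 and 72 h were 0.15, -0.023 and -0.17. At 72 h it gave -0.49 for Rplp0, -0.34 for Rplp1, -0.27 for Rplp2, -0.21 for Rpl5, -0.10 for Rpl11, -0.15 for Rpsa, -0.32 for Rps14 and -0.010 for Rps24. The centred values at 72 h include the control muscle of animal 02, whose median gene was the lowest of its group, and were not computed without it.

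With the animal as a block 2 members were higher at 24 h, 1 at 14 d, and 36 and 50 changed between 10 and 72 h and between 72 h and 14 d. It moved no other count by over 1.5 times. Paired within animals the Rpl3l over Rpl3 differences of -1.54, -2.91 and -4.99 at 10, 24 and 72 h had an adjusted exact p of 0.188. With library weights 25 were higher at 48 h, 9 at 7 d and 1 at 14 d, and 0 lower at 48 h. Against all control muscles 1 and 3 were higher at 10 and 24 h, and 72 and 1 at 7 and 14 d, and 1 lower at 72 h. Fitted alone 7 d had 0 higher. With library A alone for animal 03, 24 h had 2, with no fold limit it had 3, and without that limit 1 was lower at 24 h, 72 h and 7 d. A pseudocount of 1 gave 1 at 10 h. Keeping the incomplete 7 d library gave 0, 2 and 5 higher at 10, 48 and 72 h and 4 at 7 d, 12 lower at 7 d and 0 at 48 h, 0 among control muscles, 1 higher and 0 lower for 72 h against 10 h, 0 higher and 2 lower for 14 d against 72 h, and -1.866 for Rpl41 at 7 d.

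Without each library in turn, members called higher ranged over 0 to 2 (10 h, with 0 when the injured leg of animal 04 was left out), 1 to 3 (24 h, with 3 when the control leg of animal 02 was), 5 to 57 (48 h), 43 to 66 (72 h), 1 to 75 at 7 d and 0 to 1 at 14 d, and members called lower 0 to 1 at 48 h, 72 h and 7 d. At 7 d the number was 14 when the control leg of animal 03 was left out, 12 for that of 04 and 19 for that of 05, and 70 without the injured muscle of animal 03 or 04. The Rpl3l over Rpl3 difference ran from -1.766 to -1.351 at 10 h and from -1.548 to -1.044 at 14 d. A single library moved it by over 1.5 times at the last times and at 7 d, with ranges of -4.888 to -2.121 at 7 d, -0.888 to -0.391 at 21 d and -0.709 to -0.347 at 28 d. The members' median at 7 d ran from -0.03 to 1.67. Over all alternatives, 574 differences of named genes stayed on their side of the threshold with their direction, 82 kept the direction only and 11 reversed. Leaving out both legs of animal 02 (5 higher at 7 d) and the classes of length were chosen after seeing the data.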
